A study of Mus musculus with 11 samples.

Results

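Mesenchymal stromal cells restrain immune cells through a small set of secreted and surface molecules, and 10 genes of that set were examined here: Ptgs2, Ptges, Ptger4, Nos2, Tnfaip6, Cd274, Lgals1, Lgals3, Lgals9 and Nt5e. They were taken by gene name from 2 deposited tables of bulk RNA-seq, each holding 1 knockout with the wild type, and all 10 of 10 were in both, among 18712 genes that the tables share. The 11 libraries came from untreated primary stromal cells of mouse bone marrow. ANXA2 KO had 3 libraries, ANXA5 KO had 4 and wild type (WT) had 4, all on the C57/BL6 background. The labels name neither the age or sex of the mice nor the part of either gene that was removed, and they do not say whether libraries of a group came from separate animals, so p-values measure the spread between these libraries, which may be technical in part.

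The mediators act by different routes. Ptgs2 (cyclooxygenase-2) and Ptges (microsomal prostaglandin E synthase) make prostaglandin E2 from arachidonic acid, and Ptger4 encodes EP4, a receptor of that lipid. Nos2, the inducible nitric oxide synthase, is a main effector of mouse stromal cells against T cells once inflammatory cytokines have licensed them. Tnfaip6 encodes TSG-6, a secreted protein that binds hyaluronan and dampens inflammation, and Cd274 encodes PD-L1, the ligand of the checkpoint receptor PD-1. The galectins Lgals1, Lgals3 and Lgals9 are lectins that bind beta-galactosides on immune cells, and Nt5e encodes CD73, which turns extracellular AMP into adenosine and is a surface marker of mesenchymal stromal cells. ANXA2 and ANXA5 are annexins, proteins that bind membrane phospholipids in the presence of calcium.

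The promoters of Ptgs2 and Tnfaip6 are shown because these members had the most alike profiles over the 11 libraries. Each runs from 250 bases before to 50 bases after the annotated start, from RefSeq on GRCm38.p6, chr1:150099781-150100080 for Ptgs2 and chr2:52037863-52038162 for Tnfaip6, both on the plus strand, with motif matches in capitals.
Ptgs2: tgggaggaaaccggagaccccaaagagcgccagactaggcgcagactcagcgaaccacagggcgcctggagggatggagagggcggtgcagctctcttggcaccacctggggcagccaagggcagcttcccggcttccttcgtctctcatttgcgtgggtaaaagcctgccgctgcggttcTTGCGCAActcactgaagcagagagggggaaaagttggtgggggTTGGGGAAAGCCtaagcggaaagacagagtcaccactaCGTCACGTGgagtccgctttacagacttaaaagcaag
Tnfaip6: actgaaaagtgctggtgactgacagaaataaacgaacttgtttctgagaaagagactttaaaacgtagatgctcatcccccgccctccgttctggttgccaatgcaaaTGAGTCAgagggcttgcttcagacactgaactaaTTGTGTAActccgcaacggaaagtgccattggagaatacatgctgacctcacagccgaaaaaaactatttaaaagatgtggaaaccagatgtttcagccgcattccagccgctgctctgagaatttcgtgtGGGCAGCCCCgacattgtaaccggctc
Positions are counted from the annotated start, and where transcription starts in these cells was not examined. Capitals in the Ptgs2 promoter mark a C/EBP motif (TTNNGNAA) at -69 to -62 and a second at -25 to -18 that overlaps an NF-kB motif (GGGNNNNNCC) at -23 to -14. At 14 to 18 from the annotated start they mark the core of a cAMP response element (TGACG, read on the minus strand). It overlaps an E-box (CACGTG) at 17 to 22. Capitals in the Tnfaip6 promoter mark an AP-1 motif (TGANTCA) at -142 to -136, a C/EBP motif at -108 to -101 and an NF-kB motif at 24 to 33. Both strands were searched, and TATAAA was searched too. Of 32851 promoters of the same length, 50.8% held the NF-kB letters, 40.7% the C/EBP letters, 20.8% the cAMP response core, 13.6% TATAAA, 7.81% the AP-1 letters and 7.15% the E-box. Such matches describe letters, not binding. The Ptges promoter held both NF-kB and C/EBP letters as well. Its profile was less like those of Ptgs2 and Tnfaip6 than they were like each other. Promoters of 8 of the 10 members were matched, and those of Nos2 and Lgals1 were not analysed here.

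Libraries held 23.3 to 35.7 M reads over the genes of the tables. The 10 stromal markers, Pdgfra and Col1a1 among them, summed to 1386400 to 2104370 normalised reads in ANXA2 KO, 1385960 to 2036920 in ANXA5 KO and 1052710 to 1796770 in WT. Markers of blood cells were present in every library too, with 10 neutrophil genes summing to 302319 to 740538 and 12 macrophage genes to 84024 to 173687 normalised reads over all 11 libraries. As these are bulk samples, fewer cells of a type and less RNA per cell cannot be told apart. Anxa2 fell to 28.6% of the WT level in ANXA2 KO (limma adjusted p = 0.00191), and Anxa5 fell to 9.24% in ANXA5 KO (limma adjusted p = 1.91e-08). Xist had 699, 242 and 218 normalised reads in ANXA2 KO libraries 1, 3 and 4. It had 764, 2.03, 1636 and 514 in ANXA5 KO libraries 1 to 4 and 1957, 2139, 1.25 and 1.03 in WT libraries 1 to 4. Libraries within ANXA5 KO and within WT were thus not alike in Xist, and the labels give no sex to set beside these values. The ANXA2 KO libraries are called 1, 3 and 4 after their columns, whose numbers are not those of the titles.

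Levels below are normalised reads, that is reads divided by a size factor of the library, on 1 scale made for all 11 libraries from the reads of both tables. To compare genes with each other, these were divided by exon length. In WT cells Lgals1 had the highest level, 8508 ± 1861 normalised reads per kb (SD, n = 4), followed by Tnfaip6 at 6674 ± 2118 and Lgals3 at 5970 ± 946. The ranges of neighbours among these overlapped, so their order is not resolved. Lgals9 followed at 2106 ± 120, Ptgs2 at 1036 ± 346 and Ptges at 398 ± 43.7, each with a range apart from its neighbours. Nt5e at 217 ± 45.9 and Ptger4 at 182 ± 13 overlapped, Cd274 stood apart at 76.4 ± 6.51, and Nos2 was lowest at 3.45 ± 1.85 normalised reads per kb.

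The order was nearly the same in the knockouts. In ANXA2 KO Tnfaip6 had the highest mean, 11570 ± 7007 normalised reads per kb (SD, n = 3), with Lgals1 at 10635 ± 1444 within its range. In ANXA5 KO the leading genes were Lgals1 at 8509 ± 1147, Lgals3 at 6514 ± 1407 and Tnfaip6 at 4121 ± 1768 (SD, n = 4 each). The remaining 7 members held the same places in all groups. Nos2 stood at 2.39 ± 0.183 normalised reads per kb in ANXA2 KO and 9.40 ± 0.406 in ANXA5 KO, the lowest member in each.

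**Figure D1:**
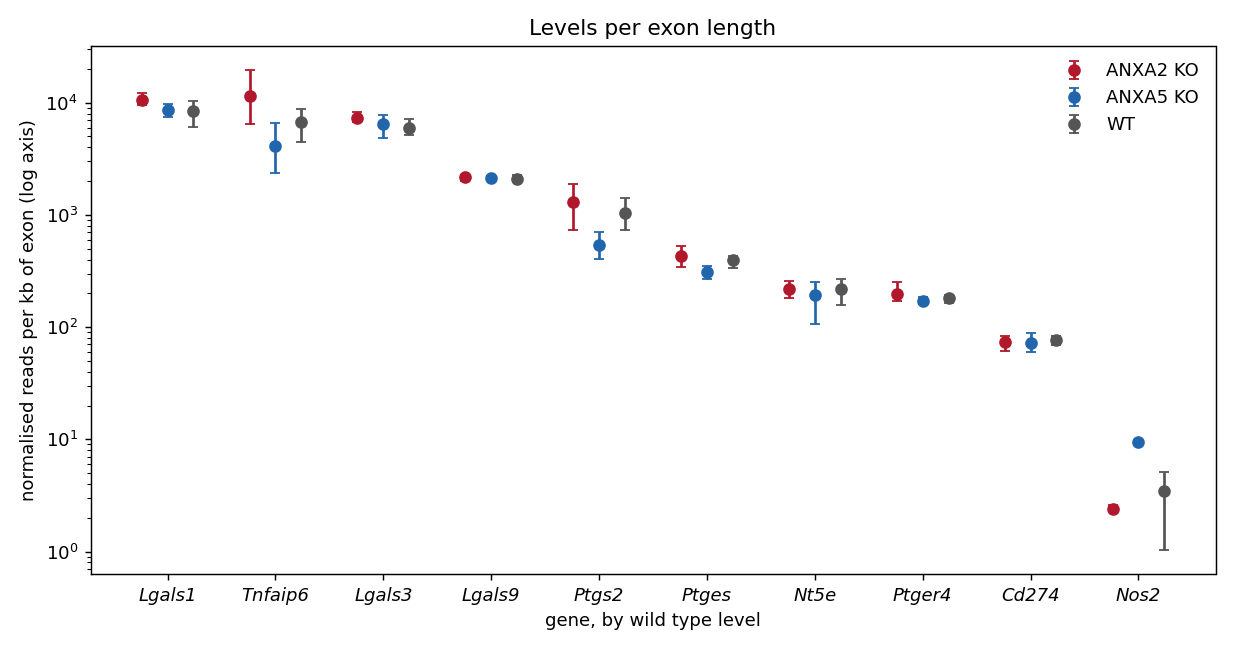
Mean level of each mediator in normalised reads per kb of exon (log axis), with bars from the lowest to the highest library, for ANXA2 KO (3 libraries), ANXA5 KO (4) and WT (4). The galectins and Tnfaip6 lie at the top in every group and Nos2 at the bottom, at 3.45 in WT.

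Replicates of a group were much less alike for some members than for others. The coefficient of variation of Tnfaip6 was 60.6% in ANXA2 KO, 42.9% in ANXA5 KO and 31.7% in WT. That of Ptgs2 was 45.0% in ANXA2 KO, 27.3% in ANXA5 KO and 33.4% in WT. Among genes with a group mean of at least 1000 normalised reads (5220 to 5370 of them), the median was 11.9% in ANXA2 KO, 8.86% in ANXA5 KO and 10.8% in WT, and both mediators exceeded at least 94.1% of those genes in every group. Lgals9 was among the steadiest members, with 5.87% in ANXA2 KO, 3.98% in ANXA5 KO and 5.69% in WT.

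Each knockout was tested against the 4 WT libraries within its own table with limma-trend on log2 (normalised reads + 1), and ANXA2 KO was tested against ANXA5 KO in a joint fit. Calls used a Benjamini-Hochberg adjusted p under 0.05 over all tested genes. Fold changes are on that log2 scale, where the added 1 shrinks the change of low genes. Genes needed at least 10 normalised reads in 3 libraries to be tested (4 in ANXA5 KO against WT), and all 10 members passed. By limma 0 of 10 members were called in ANXA2 KO against WT (background 0.112% of 16123 genes), 0 of 10 in ANXA5 KO against WT (0.0308% of 16224) and 0 of 10 in ANXA2 KO against ANXA5 KO (0.298% of 16791). At an unadjusted p under 0.05 the members numbered 0 (8.69% of all genes), 4 (11.9%) and 4 (13.6%) in the same order of comparisons. edgeR and limma-voom called 0 members in each comparison, with a background of 0.13%, 0.0308% and 0.262% for edgeR and 0.112%, 0.0308% and 0.28% for limma-voom.

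DESeq2 on the recovered reads called 0 members in ANXA2 KO against WT (background 0.645%), 2 in ANXA5 KO against WT (1.89%) and 3 in ANXA2 KO against ANXA5 KO (2.46%). The 2 were Ptgs2 and Nos2, and the 3 were these with Tnfaip6. In the authors' deposited table Ptgs2 (log2 fold change -0.95, adjusted p = 0.0234) and Nos2 (1.45, adjusted p = 0.0083) passed in ANXA5 KO (background 1.76%), and 0 members passed in ANXA2 KO (0.593%). Leaving out 1 library at a time, an alternative chosen after seeing the data, DESeq2 called 0 to 2 members in ANXA5 KO, with 0 without ANXA5 KO library 3 or library 4, and 1 without ANXA5 KO library 1 or WT library 1, 2 or 3. The 2 called without ANXA5 KO library 2 were Ptgs2 and Tnfaip6. Between the knockouts it called 1 to 3, with Nos2 alone left without ANXA5 KO library 3 or library 4.

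Groups did not overlap for 0 of 10 members in ANXA2 KO against WT (9.19% of all tested genes), and for Ptgs2 and Nos2, 2 of 10, in ANXA5 KO against WT (6.37%) and in ANXA2 KO against ANXA5 KO (12.6%). The median log2 fold change of the members was 0.11 in ANXA2 KO against WT, -0.08 in ANXA5 KO against WT and 0.22 in ANXA2 KO against ANXA5 KO, beside medians of 0.02, 0.01 and 0.01 over all tested genes. These comparisons share libraries: both knockouts were set against the same WT libraries, and each knockout also enters the direct comparison.

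**Figure D2:**
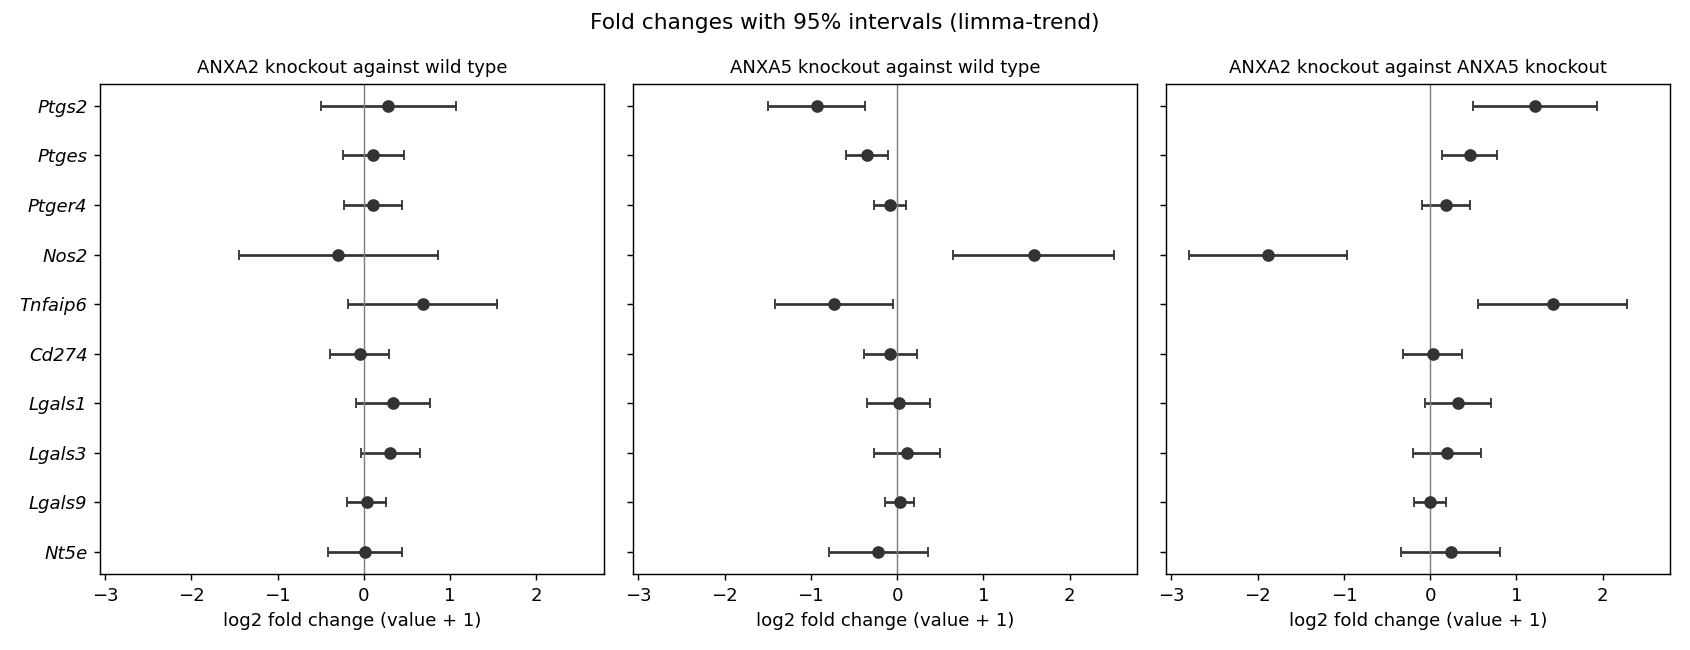
Log2 fold changes of the 10 mediators (limma-trend, normalised reads + 1) with 95% intervals for ANXA2 KO minus WT, ANXA5 KO minus WT and ANXA2 KO minus ANXA5 KO. Intervals leave 0 for 0 members in ANXA2 KO against WT and for Ptgs2, Ptges, Nos2 and Tnfaip6 in the other comparisons, before adjustment over all genes.

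Of the prostaglandin E2 axis, the enzyme genes stood lowest in ANXA5 KO. Ptgs2 (ENSMUSG00000032487.9, chromosome 1), the inducible enzyme that commits arachidonic acid to prostaglandins, had 8703, 3355 and 5806 normalised reads in ANXA2 KO libraries 1, 3 and 4, against 2789, 3222, 1942 and 1840 in ANXA5 KO libraries 1 to 4 and 5735, 3445, 6449 and 3342 in WT libraries 1 to 4. Every ANXA5 KO library lay below every WT and every ANXA2 KO library, though ANXA5 KO library 2 and WT library 4 were close. The log2 fold change of ANXA5 KO against WT was -0.93 (SE 0.253, 95% interval -1.49 to -0.367, limma adjusted p = 0.266). ANXA2 KO libraries ranged from near the lowest WT library to above the highest, with a log2 fold change of 0.28 (95% interval -0.496 to 1.06, limma adjusted p = 0.813), which was -0.04 without ANXA2 KO library 1. Between the knockouts the difference was 1.22 (SE 0.329, 95% interval 0.502 to 1.93, limma adjusted p = 0.184; DESeq2 adjusted p = 0.0113).

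Ptges (ENSMUSG00000050737.14, chromosome 2), which makes prostaglandin E2 from the cyclooxygenase product, averaged 1707 ± 359 normalised reads in ANXA2 KO (SD, n = 3), 1229 ± 130 in ANXA5 KO (SD, n = 4) and 1563 ± 172 in WT (SD, n = 4). The 4 ANXA5 KO libraries ranged from 1053 to 1364 and the WT libraries from 1319 to 1697, so the groups overlapped slightly. The log2 fold change was -0.34 in ANXA5 KO against WT (SE 0.11, limma adjusted p = 0.313), 0.11 in ANXA2 KO against WT (limma adjusted p = 0.847) and 0.46 between ANXA2 KO and ANXA5 KO (SE 0.146, limma adjusted p = 0.236). ANXA2 KO library 1, the highest for Ptgs2, was the lowest of its group for Ptges, with 1353 normalised reads against 2071 and 1697 in libraries 3 and 4.

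Ptger4 (ENSMUSG00000039942.16, chromosome 15), the EP4 receptor, had 1660, 1127 and 1186 normalised reads in ANXA2 KO libraries 1, 3 and 4, against 1069 to 1222 in ANXA5 KO and 1095 to 1288 in WT. ANXA2 KO library 1 was the highest of the 11, and the other libraries of the 3 groups overlapped. The log2 fold changes were 0.11 in ANXA2 KO against WT (95% interval -0.227 to 0.439), which was -0.07 without that library, and -0.08 in ANXA5 KO against WT (95% interval -0.266 to 0.108). Of its exon length 15.3% overlaps the pseudogene Gm15937 on the opposite strand, and the strand setting of the counts is not given, so its reads cannot be told apart there.

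Among 17 tested genes of prostaglandin E2 synthesis, receptors and removal other than the members, limma, edgeR and limma-voom called 0 in each comparison. At an unadjusted p under 0.05 limma had 0 in ANXA2 KO against WT (8.69% of all genes). It had 3 in ANXA5 KO against WT (11.9%) and 1 in ANXA2 KO against ANXA5 KO (13.6%), and the medians were 0.08, 0.07 and 0.09. Ptgir, the prostacyclin receptor, averaged 1215 ± 74.8 normalised reads in ANXA5 KO and 1549 ± 60.8 in WT (SD, n = 4 each), a log2 fold change of -0.35 (limma adjusted p = 0.217), and DESeq2 called it. Ptger1, the EP1 receptor, averaged 176 ± 42.1 in ANXA2 KO (n = 3) and 123 ± 26.2 in WT (n = 4), a log2 fold change of 0.51 (limma adjusted p = 0.576).

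Nos2 (ENSMUSG00000020826.10, chromosome 11) was the member with the largest difference between the knockouts. It had 10.4, 11.4 and 9.85 normalised reads in ANXA2 KO libraries 1, 3 and 4, against 41.0, 39.5, 41.5 and 43.9 in ANXA5 KO libraries 1 to 4 and 4.54, 13.3, 22.5 and 20.6 in WT libraries 1 to 4. The ANXA5 KO libraries lay within a narrow band above all others, while the ANXA2 KO libraries lay inside the WT range. Counts were low, so the narrowness of that band is not read as a trait of the group. In WT, 1 library held under 5 normalised reads. The log2 fold change was 1.59 in ANXA5 KO against WT (SE 0.419, 95% interval 0.654 to 2.52, limma adjusted p = 0.245), and -0.30 in ANXA2 KO against WT (95% interval -1.44 to 0.854, limma adjusted p = 0.878). The value of ANXA5 KO against WT was 1.44 by edgeR and 1.45 by DESeq2. By limma it was 1.13 to 1.83 with 1 library left out.

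ANXA2 KO minus ANXA5 KO gave -1.88 for Nos2 (SE 0.42, 95% interval -2.79 to -0.963, limma adjusted p = 0.12), and the adjusted p was 0.079 by edgeR, 0.0895 by limma-voom and 0.000558 by DESeq2. Without WT library 1, which enters the shared estimate of spread, the filter (16685 genes tested) and the adjustment, limma called it (adjusted p = 0.00871; background 0.324%), and over all single libraries left out the limma adjusted p was 0.00871 to 0.38. A minimum of 50 normalised reads left Nos2 out of the tests. The 3' end of Nos2 faces that of Lgals9 at a distance of 2719 bases in the GRCm38 annotation, and Lgals9 differed little between groups.

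Markers of endothelial cells also stood highest in ANXA5 KO on average. The 9 markers, Pecam1 and Cdh5 among them, summed to 3984 to 6031 normalised reads in ANXA2 KO, 5285 to 8158 in ANXA5 KO and 4044 to 5469 in WT. In ANXA5 KO against WT 8 of 9 had a fold change above 0, and the median log2 fold change was 1.23. Tek, which is part of these sums, ran lower, at 1543 to 1882 in ANXA5 KO and 1846 to 3091 in WT. Groups did not overlap for 5 of 9, all higher (6.37% of all tested genes). By limma and edgeR 0 were called (background 0.0308% each), and DESeq2 called 4 (1.89%). As genes in both tables, the 9 could not be at 0 in any library. The 12 macrophage markers, a cell type that can express Nos2 too, all had a fold change above 0 in ANXA5 KO against WT (median 0.41, sums of 118505 to 150283 in ANXA5 KO and 84024 to 130375 in WT). Some other lists ran the same way in ANXA5 KO against WT. Fold changes were above 0 for 3 of 3 tested adipocyte markers (median 1.40), of which DESeq2 called Fabp4 and Adipoq, for 6 of 6 osteoblast markers (0.64), 6 of 6 erythroid markers (0.51) and 10 of 10 neutrophil markers (0.37), and limma, edgeR and limma-voom called 0 of these. At an unadjusted limma p under 0.05 (11.9% of all genes) they numbered 2 adipocyte, 5 osteoblast, 1 erythroid and 4 neutrophil markers. At that level were 9 of 9 endothelial markers, with Tek as the lower one, and 8 of 12 macrophage markers. Stromal markers were above 0 for 5 of 10 (median 0.08), with 0 at that level. B and plasma cell markers were above 0 for 7 of 8 (0.06), with 2 at that level, and DESeq2 called Igkc as higher (background 1.89%). T cell markers were above 0 for 5 of 6 (0.10), with 0 at that level. The part of these cell types in the Nos2 values was not tested.

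**Figure D3:**
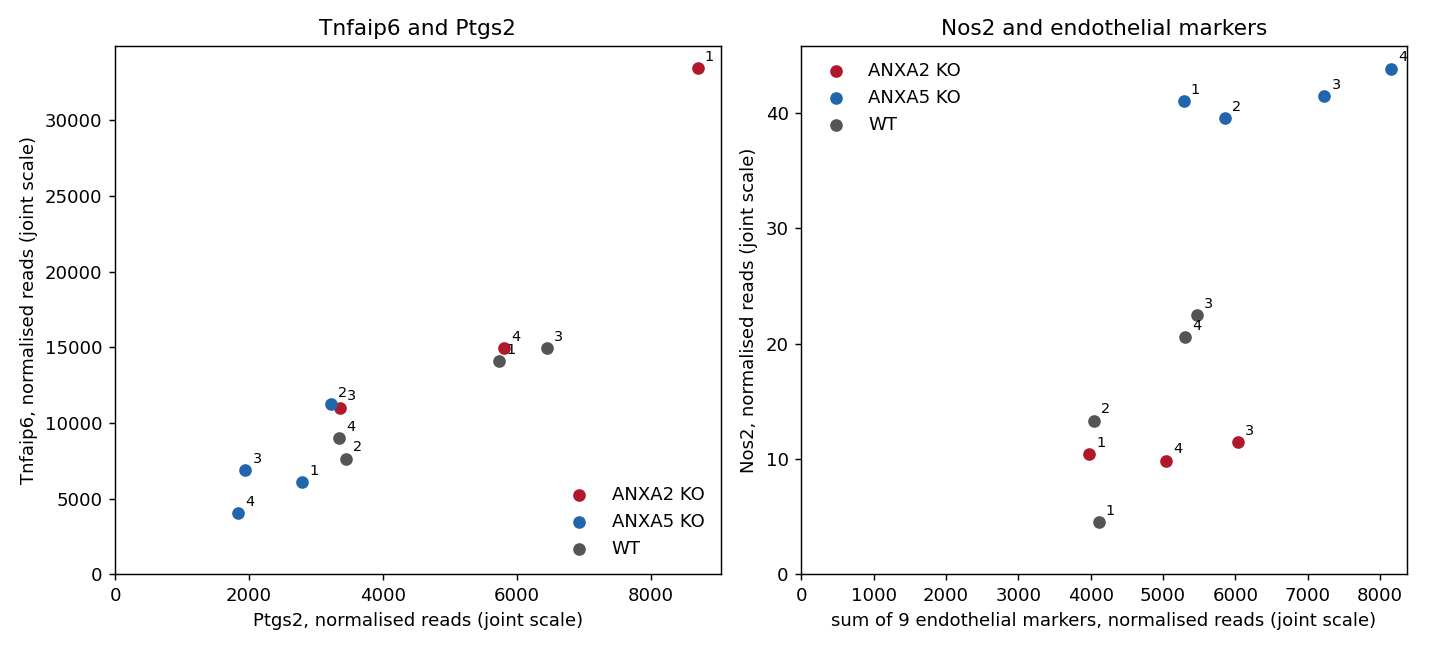
Left, Tnfaip6 against Ptgs2 in each of the 11 libraries, in normalised reads, with ANXA2 KO library 1 at the top right (33434 and 8703). Right, Nos2 against the sum of 9 endothelial markers, in normalised reads, where the 4 ANXA5 KO libraries lie above 39 for Nos2 and numbers beside points are library numbers.

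Nos3, the endothelial nitric oxide synthase, stood apart in ANXA5 KO in the same direction, with 188 ± 87.7 normalised reads in ANXA5 KO and 45.2 ± 22.2 in WT (SD, n = 4 each), a log2 fold change of 2.1 (SE 0.419, limma adjusted p = 0.217), and DESeq2 called it. Among 12 tested genes of nitric oxide and arginine metabolism limma, edgeR and limma-voom called 0 in each comparison. At an unadjusted limma p under 0.05 they numbered 1 in ANXA2 KO against WT (8.69% of all genes). They numbered 2 in ANXA5 KO against WT (11.9%) and 2 in ANXA2 KO against ANXA5 KO (13.6%). Gch1, which makes the cofactor of nitric oxide synthases, averaged 1102 ± 273 in ANXA2 KO (n = 3) and 792 ± 111 in WT (n = 4), a log2 fold change of 0.46 (limma adjusted p = 0.564). Ddah2, which breaks down inhibitors of these enzymes, averaged 4617 ± 175 in ANXA5 KO and 5591 ± 724 in WT (SD, n = 4 each), a log2 fold change of -0.27 (limma adjusted p = 0.353).

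Tnfaip6 (ENSMUSG00000053475.6, chromosome 2), the gene of TSG-6, had 33434, 11002 and 14918 normalised reads in ANXA2 KO libraries 1, 3 and 4, against 6070, 11218, 6857 and 4040 in ANXA5 KO libraries 1 to 4 and 14057, 7646, 14934 and 9015 in WT libraries 1 to 4. ANXA2 KO library 1 held more than any other library by a wide margin, and ANXA5 KO library 2 just exceeded ANXA2 KO library 3, so no pair of groups was separate. The log2 fold change of ANXA2 KO against WT was 0.68 (SE 0.381, limma adjusted p = 0.61), and 0.22 without ANXA2 KO library 1. That of ANXA5 KO against WT was -0.73 (SE 0.307, 95% interval -1.42 to -0.0489, limma adjusted p = 0.394). ANXA2 KO minus ANXA5 KO gave 1.42 (SE 0.398, 95% interval 0.555 to 2.29, limma adjusted p = 0.201; DESeq2 adjusted p = 0.0147), and 0.96 without ANXA2 KO library 1.

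Tnfaip6 followed Ptgs2 from library to library. Within a library Tnfaip6 had 3.84, 3.28 and 2.57 times the reads of Ptgs2 in ANXA2 KO libraries 1, 3 and 4, 2.18 to 3.53 times in ANXA5 KO and 2.22 to 2.70 times in WT. In WT both were higher in libraries 1 and 3 than in libraries 2 and 4. With profiles standardised over the 11 libraries, the root mean square difference of this pair was 0.383, the smallest of all 45 pairs of members, and Ptger4 with Tnfaip6 came next at 0.587. The pair Ptgs2 and Nos2 was the least alike at 1.86.

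Around TSG-6, which loads proteins onto hyaluronan, 12 genes of the hyaluronan matrix were tested. Vcan, versican, a large proteoglycan that binds hyaluronan, fell to 3706 ± 168 normalised reads in ANXA2 KO (SD, n = 3), against 5639 ± 588 in ANXA5 KO (SD, n = 4; log2 -0.60, SE 0.0974, limma adjusted p = 0.0299), and limma, edgeR and limma-voom called no other of the 12 in any comparison. The call was lost without each of the 7 knockout libraries in turn, where the limma adjusted p was 0.0569 to 0.109. Vcan averaged 3454 ± 156 in ANXA2 KO and 5112 ± 309 in WT within their own table, which did not pass (limma adjusted p = 0.118), and DESeq2 called it there. Ptx3, a pentraxin that joins TSG-6 in the hyaluronan matrix, averaged 3087 ± 1081 in ANXA2 KO and 1831 ± 327 in WT (log2 0.72, limma adjusted p = 0.518). Has1, a hyaluronan synthase, averaged 18892 ± 10133 in ANXA5 KO and 35451 ± 16029 in WT (SD, n = 4 each; log2 -0.94, limma adjusted p = 0.364). Between ANXA2 KO and ANXA5 KO, DESeq2 called Ptx3 and the hyaluronan-degrading Cemip as higher in ANXA2 KO and Vcan as lower (background 2.46%). The median of the 12 was 0.11 in ANXA2 KO against WT, -0.24 in ANXA5 KO against WT and 0.35 in ANXA2 KO against ANXA5 KO.

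**Figure D4:**
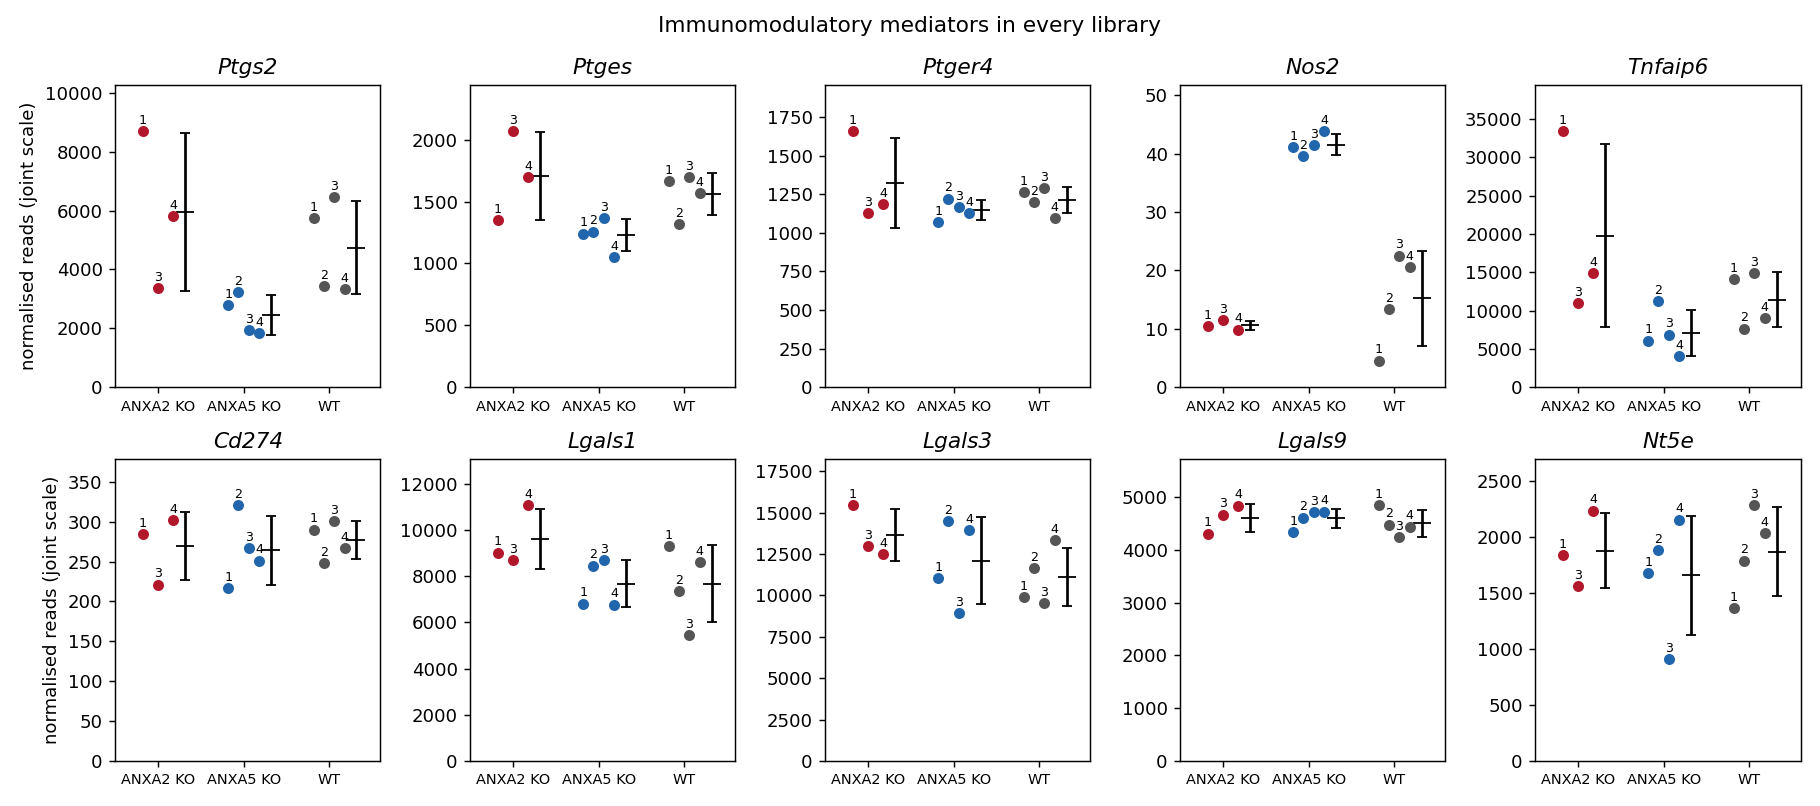
Normalised reads of each mediator in every library on the scale shared by the 11 libraries, with the mean and SD of ANXA2 KO (n = 3), ANXA5 KO (n = 4) and WT (n = 4) beside the points, numbered by library. The 4 ANXA5 KO libraries lie at 1840 to 3222 for Ptgs2, below the others, and at 39.5 to 43.9 for Nos2, above the others.

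Of the remaining members, limma, edgeR, limma-voom and DESeq2 called 0 in each comparison. Cd274 (ENSMUSG00000016496.8, chromosome 19), the gene of PD-L1, averaged 269 ± 42.6 normalised reads in ANXA2 KO, 264 ± 43.7 in ANXA5 KO and 277 ± 23.6 in WT (SD, n = 3, 4 and 4). Its log2 fold change was -0.05 in ANXA2 KO against WT (95% interval -0.395 to 0.295) and -0.08 in ANXA5 KO against WT (95% interval -0.382 to 0.227). An antisense gene covers 14.1% of its exon length, with the same limit of strand as for Ptger4. Among 14 tested checkpoint ligands and partners limma, edgeR, limma-voom and DESeq2 called 0 in each comparison. Each comparison had 1 at an unadjusted limma p under 0.05, beside 8.69%, 11.9% and 13.6% of all genes. These were Pdcd1, the receptor PD-1, at 14 ± 2.96 in ANXA2 KO and 24.9 ± 5.56 in WT (log2 -0.78, limma adjusted p = 0.555) and at 15.1 ± 3.18 in ANXA2 KO and 28.4 ± 11.8 in ANXA5 KO (log2 -0.80, limma adjusted p = 0.338), and Icosl, a ligand of the T cell costimulator ICOS, at 554 ± 40.4 in ANXA5 KO and 457 ± 76.0 in WT (log2 0.29, limma adjusted p = 0.414).

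Of the galectins, Lgals1 (ENSMUSG00000068220.7, chromosome 15), whose product induces T cell death, had 9026, 8688 and 11096 normalised reads in ANXA2 KO libraries 1, 3 and 4, against 6767 to 8695 in ANXA5 KO and 5464 to 9293 in WT. Its log2 fold change was 0.34 in ANXA2 KO against WT (95% interval -0.091 to 0.771, limma adjusted p = 0.61) and 0.02 in ANXA5 KO against WT (95% interval -0.348 to 0.388). Lgals3 (ENSMUSG00000050335.18, chromosome 14), a galectin that is abundant in macrophages too, had 15479, 12988 and 12505 in ANXA2 KO libraries 1, 3 and 4, against 8917 to 14512 in ANXA5 KO and 9515 to 13330 in WT. The ANXA2 KO libraries lay in the upper part of the WT range or above it, and the log2 fold change was 0.31 (95% interval -0.0392 to 0.65, limma adjusted p = 0.587). In ANXA5 KO against WT it was 0.11 (95% interval -0.266 to 0.493). The 12 macrophage markers had a median log2 fold change of 0.13 in ANXA2 KO against WT, with 8 of 12 above 0 and sums of 87859 to 173687 in ANXA2 KO and 84024 to 130375 in WT, and their part in the Lgals3 values was not tested.

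Lgals9 (ENSMUSG00000001123.16, chromosome 11), a ligand of the receptor TIM-3 on T cells, was the most even member. It had 4308 to 4838 normalised reads in ANXA2 KO, 4331 to 4724 in ANXA5 KO and 4239 to 4853 in WT. Its log2 fold change was 0.03 in ANXA2 KO against WT (95% interval -0.191 to 0.253), 0.03 in ANXA5 KO against WT (95% interval -0.136 to 0.199) and 0.00 in ANXA2 KO against ANXA5 KO (95% interval -0.182 to 0.186). These are the narrowest intervals among the members in each comparison. Among other galectins and their ligands, 9 tested in ANXA2 KO against WT and 10 in each other comparison, limma, edgeR, limma-voom and DESeq2 called 0. At an unadjusted limma p under 0.05 they numbered 1, 1 and 0, beside 8.69%, 11.9% and 13.6% of all genes. Havcr2, which encodes TIM-3, averaged 61.3 ± 24.9 in ANXA2 KO and 35.1 ± 6.97 in WT (log2 0.74, limma adjusted p = 0.565), and Ptprc, the leukocyte protein CD45, 5449 ± 803 in ANXA5 KO and 4505 ± 257 in WT (log2 0.26, limma adjusted p = 0.385).

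Nt5e (ENSMUSG00000032420.9, chromosome 9), the gene of CD73, had 1837, 1563 and 2237 normalised reads in ANXA2 KO libraries 1, 3 and 4, against 1677, 1883, 910 and 2155 in ANXA5 KO libraries 1 to 4 and 1362, 1790, 2288 and 2037 in WT libraries 1 to 4. ANXA5 KO library 3 was the lowest of all, and the rest of the 3 groups overlapped. Its log2 fold change was 0.02 in ANXA2 KO against WT (95% interval -0.414 to 0.447) and -0.22 in ANXA5 KO against WT (95% interval -0.788 to 0.354), which was 0.05 without ANXA5 KO library 3. The gene lies on the chromosome of Anxa2, 18.9 Mb after it in the GRCm38 annotation. Of the genes that make, sense and remove adenosine, 16 were tested against WT in each knockout and 17 between the knockouts, and limma, edgeR and limma-voom called 0 of them. At an unadjusted limma p under 0.05 they numbered 0 in ANXA2 KO against WT (8.69% of all genes). They numbered 4 in ANXA5 KO against WT (11.9%) and 4 between the knockouts (13.6%). Dpp4, a peptidase that anchors adenosine deaminase, averaged 3820 ± 297 in ANXA5 KO and 5581 ± 1104 in WT (SD, n = 4 each; log2 -0.53, limma adjusted p = 0.23), and DESeq2 called it. Alpl, the alkaline phosphatase that can release adenosine from AMP, averaged 1365 ± 232 in ANXA5 KO and 889 ± 263 in WT (SD, n = 4 each), a log2 fold change of 0.65 (limma adjusted p = 0.305). Cd38, an enzyme that consumes NAD and feeds adenosine production, averaged 436 ± 43.1 in ANXA2 KO (n = 3) and 618 ± 105 in ANXA5 KO (n = 4), a log2 difference of -0.49 (limma adjusted p = 0.211).

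Other secreted and adhesive immunomodulators of stromal cells numbered 23 tested genes. Icam1, an adhesion molecule for leukocytes, was called by limma, edgeR, limma-voom and DESeq2, with 16176 ± 2457 normalised reads in ANXA2 KO (SD, n = 3) and 7258 ± 1201 in ANXA5 KO (SD, n = 4), a log2 difference of 1.16 (SE 0.171, limma adjusted p = 0.0151). It was not called by limma without ANXA2 KO library 1 (adjusted p = 0.0848), ANXA5 KO library 3 (0.0512) or ANXA5 KO library 4 (0.0715). At an unadjusted p under 0.05, 10 of 23 were higher in ANXA2 KO than in ANXA5 KO and 0 lower, beside 7.39% and 6.16% of all genes, and their median was 0.40. Against WT, Icam1 averaged 15079 ± 2291 in ANXA2 KO and 9147 ± 1691 in WT (log2 0.73, limma adjusted p = 0.393), where DESeq2 called it. In the other table it averaged 7437 ± 1227 in ANXA5 KO and 10043 ± 1903 in WT (log2 -0.43, limma adjusted p = 0.342), where DESeq2 did not. The medians of the list against WT were 0.38 in ANXA2 KO, with 7 higher and 1 lower at that level (4.65% and 4.04% of all genes), and -0.27 in ANXA5 KO, with 1 higher and 6 lower (6.48% and 5.45%). Ccl2, a chemokine for monocytes, averaged 3032 ± 875 in ANXA2 KO (n = 3) and 1792 ± 422 in WT (n = 4), a log2 fold change of 0.75 (limma adjusted p = 0.518). Vcam1, an adhesion molecule for lymphocytes and monocytes, averaged 4762 ± 546 in ANXA5 KO and 3633 ± 338 in WT (SD, n = 4 each), a log2 fold change of 0.39 (limma adjusted p = 0.271). DESeq2 also called Il6, Cxcl1 and Cxcl10, cytokine and chemokine genes, as higher in ANXA2 KO than in ANXA5 KO, 4 of 23 in all (background 2.46%). These 3 are named after their values were seen.

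Receptors and factors that license stromal cells for immunomodulation, such as the interferon gamma and TNF receptors, numbered 21, and limma, edgeR and limma-voom called 0 in each comparison. Irf1, a transcription factor of the interferon response, came nearest, with 11365 ± 1033 normalised reads in ANXA2 KO and 5261 ± 801 in ANXA5 KO, a log2 difference of 1.12 (SE 0.216, limma adjusted p = 0.0659). Nfkbia, the inhibitor of NF-kB, averaged 25548 ± 3294 in ANXA2 KO and 15794 ± 2940 in ANXA5 KO (log2 0.71, limma adjusted p = 0.148), and DESeq2 called both (background 2.46%). DESeq2 also called Nfkbia in ANXA2 KO against WT, where it averaged 23816 ± 3072 in ANXA2 KO and 15709 ± 2352 in WT (log2 0.60, limma adjusted p = 0.463). The list had 4 of 21 at an unadjusted limma p under 0.05 in ANXA2 KO against WT (8.69% of all genes). It had 1 in ANXA5 KO against WT (11.9%) and 6 in ANXA2 KO against ANXA5 KO (13.6%), with medians of 0.19, 0.01 and 0.15.

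Genes most like each member were found over all 11 libraries by the root mean square difference of standardised log2 profiles, among 12916 genes with a mean of at least 50 normalised reads, where the median gene lay between 1.35 and 1.43 from a member. Nearest to Tnfaip6 were the chemokine genes Cxcl1 (0.187) and Ccl7 (0.237). Nearest to Ptgs2 were Ier5 (0.287), an immediate early response gene, and Gem (0.313), a small GTP-binding protein. Nearest to Ptger4 were Klf6 (0.278), a zinc finger transcription factor, and Nxf1 (0.300), an mRNA export factor. Nearest to Nos2 were Gpihbp1 (0.418), which carries lipoprotein lipase across capillary endothelium, and Esam (0.430), an endothelial adhesion molecule. These values describe likeness over libraries that also differ in depth and cell makeup.

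For the other members the nearest genes were Slc22a17 (0.439) and Fst (0.489), the activin inhibitor follistatin, for Ptges, and Grcc10 (0.282) and Slirp (0.288), an RNA-binding protein of mitochondria, for Lgals1. Lgals3 was nearest to Card19 (0.454) and Fam32a (0.458), and Lgals9 to Mrpl46 (0.557), a mitochondrial ribosomal protein, and Pop7 (0.571), a subunit of ribonuclease P. Nt5e was nearest to the formin gene Fmnl3 (0.391) and Dcaf5 (0.407). Cd274 had the most distant nearest genes, the splicing factor Srsf7 (0.589) and Ccdc122 (0.621).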

How the data were processed

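Libraries were made from total RNA of bone marrow stromal cells, per the labels. Trim Galore, STAR, HTSeq and DESeq2 with the build GRCm39 are listed in the submitters' processing notes. The sources used here give neither versions nor the strand setting. Each signal value the authors deposited is a read count divided by a library size factor. Multiplied back, 100% of values were whole within 0.001, and among the 18712 genes in both tables the WT reads matched in 100%. Values of 0 occur in WT library 4 alone in the ANXA2 KO table (188 genes) and in WT library 3 alone in the ANXA5 KO table (412 genes), so genes at 0 in any other library are absent. From the authors' deposited columns of log2 fold change and adjusted p-value, members' entries are printed where named as theirs. 0 sample columns were left out.

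The test was limma-trend on log2 (value + 1), two-sided, with a minimum of 10 normalised reads in 3 libraries, or in 4 for ANXA5 KO against WT. The knockouts were compared on recovered reads over joint median-of-ratios size factors, with 1 estimate of spread for the 3 groups. R 4.3.3, limma 3.58.1, edgeR 4.0.16 and DESeq2 1.42.0 were used, and each fit was tested on simulated data. Other settings tried were edgeR, limma-voom, DESeq2, TMM scaling, no filter, a minimum of 50, a pseudocount of 0.5 or 5, Xist as a covariate, the replicate block and leaving out each library. Members, lists and tests were chosen with earlier results of these data known. Named were the members, called list genes or otherwise those with the smallest p in each list, and the 2 genes most like each member. GENCODE vM21 on GRCm38 gave chromosomes, exon lengths, overlaps and distances only. Precision is limited by 3 or 4 libraries a group and 23.3 to 35.7 M reads each.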

Additional observations from a re-analysis of the deposited data

Results flagged for a closer look

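Nos2 was marked because the 3 ANXA2 KO libraries lay below the WT mean and the 4 ANXA5 KO libraries above it. The difference was tested as ANXA2 KO minus ANXA5 KO and came to -1.88 on the log2 scale (limma adjusted p = 0.12, DESeq2 adjusted p = 0.000558). ANXA2 KO libraries lay inside the range of the WT libraries, with a log2 fold change against WT of -0.30 (limma adjusted p = 0.878). No member had a library standing apart within a group of 4 by Dixon's criterion, and the group of 3 ANXA2 KO libraries was not examined in that way.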

How the results depend on the processing

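The count of members called stayed at 0 in ANXA2 KO against WT under all alternatives run. DESeq2 moved it to 2 in ANXA5 KO against WT and to 3 in ANXA2 KO against ANXA5 KO. Leaving out each library gave 0 to 0, 0 to 0 and 0 to 1 by limma, the 1 being Nos2 without WT replicate 1. Over all genes, limma called 18 in ANXA2 KO against WT, against 104 by DESeq2, 284 with Xist as a covariate, and 8, 11 and 10 without ANXA2 KO library 3, WT library 2 and WT library 4. It called 5 in ANXA5 KO against WT, against 282 by DESeq2, 8 with the replicate block, 8 without ANXA5 KO library 3 and 32 without WT library 4. It called 50 between the knockouts, against 397 by DESeq2, 19 and 25 without ANXA2 KO libraries 1 and 3, 21, 27, 21 and 22 without ANXA5 KO libraries 1 to 4, and 32 and 33 without WT libraries 2 and 4. The cause was not tested.

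Some directions turned, each for a fold change that had not passed the test. In ANXA2 KO against WT, Nt5e gave -0.0071 with edgeR and -0.0011 with DESeq2, and Nos2 0.0088 with Xist as a covariate. In ANXA5 KO against WT, Lgals1 gave -0.0049 with edgeR and -0.0011 with DESeq2. Between the knockouts, Lgals9 gave -0.0098 with TMM scaling, -0.015 with edgeR, -0.00026 with DESeq2, -0.016 with limma-voom and -0.0017 with Xist as a covariate. Leaving out 1 library, the fold changes that turned ranged in ANXA2 KO against WT from -0.043 to 0.64 (Ptgs2), -0.068 to 0.21 (Ptger4), -0.040 to 0.27 (Ptges), -0.14 to 0.085 (Cd274), -0.0058 to 0.078 (Lgals9) and -0.13 to 0.14 (Nt5e). They ranged in ANXA5 KO against WT from -0.18 to 0.013 (Cd274), -0.13 to 0.12 (Lgals1) and -0.37 to 0.048 (Nt5e), and between the knockouts from -0.061 to 0.16 (Cd274), -0.035 to 0.049 (Lgals9) and -0.028 to 0.39 (Nt5e).

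With the replicate block, 0 members were called in ANXA5 KO against WT. Same-numbered ANXA5 KO and WT libraries correlated at 0.0494, -0.0745, -0.252 and 0.067 in their deviations, and 0 of 4 best with their own number. These values showed no pairing by number. They cannot tell whether same-numbered libraries were prepared together, as deviations also carry other differences between libraries. A block was not fitted for the other comparisons, since the ANXA2 KO columns match their group but carry numbers other than those of its titles. A minimum of 50 gave no value for Nos2.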
